A study of Mus musculus with 6 samples.

Results

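The demethylase LSD1, its paralog KDM1B and the subunits of the CoREST complex were described at the RNA level in soleus (Sol) muscle lacking LSD1. The 9 genes were taken by symbol (Kdm1a, Kdm1b, Rcor1, Rcor2, Rcor3, Hdac1, Hdac2, Phf21a and Hmg20b), and all 9 were found among the 24411 genes of the deposited table. The question was whether the partners and the paralog changed when Kdm1a, the gene of LSD1, fell. Poly(A) RNA was sequenced from the Sol of 3 wild type (WT) and 3 LSD1-mKO mice after voluntary wheel running (VWR), with 1 library per mouse. LSD1-mKO mice were Lsd1 flox/flox and carried the ACTA1-CreERT2 transgene, and WT mice were Lsd1-floxed without CreERT2. Mice of both genotypes were single-housed from the age of 8 weeks with a wheel for 38 days and were given tamoxifen at 75 mg/kg on 5 days after 3 days of familiarization. The labels give the strain as C57BL/6, the methods of the study describe male mice, and every mouse sequenced had run, so that all values are from trained muscle. CreERT2 was driven by the human ACTA1 promoter, which is active in differentiating and differentiated muscle cells. Other cells of the tissue therefore keep an intact gene, and the RNA is of the whole muscle. In such bulk RNA, fewer cells of a type and less RNA per cell cannot be told apart.

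LSD1 is a flavin-dependent enzyme that removes methyl groups from histone lysines. It works largely inside the CoREST complex, in which a scaffold protein of the RCOR family holds LSD1 beside the histone deacetylases HDAC1 and HDAC2, while PHF21A reads the unmethylated histone tail and HMG20B is a DNA-binding HMG box subunit. Transcription factors such as REST bring the complex to its target genes, and in muscle LSD1 is known for acting on genes of differentiation, fiber type and metabolism. KDM1B is the closest relative of LSD1, has the same chemistry, and works without an RCOR scaffold.

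The sequence that the study used to follow Lsd1 mRNA by qPCR is shown because it marks a stretch that a count over the whole gene does not separate from the rest. The forward primer lies in exon 7 (chr4:136572225-136572244) and the reverse primer in exon 8 (chr4:136570458-136570477) of Kdm1a, on the minus strand of GRCm38. Both primers are in the coding sequence, and neither was found in a transcript of another gene. The product of 109 bases runs as follows, with the primer sites in capitals.
Kdm1a qPCR product: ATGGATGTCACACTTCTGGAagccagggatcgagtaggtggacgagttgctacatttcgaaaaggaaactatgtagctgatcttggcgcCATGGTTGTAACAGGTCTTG
Gene positions are given in GRCm38 from GENCODE vM21. Kdm1a spans chr4:136550540-136602723 and its longest coding transcript in GENCODE vM21 has 20 exons. The counts sum reads over all of them, so a transcript that lacks the excised exons but is still made would also be counted.

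Members of the family resemble each other in protein sequence, so their coding sequences were compared to see whether a read of 75 bases could be given to the wrong member. The longest run of identical bases in each pair, which is what limits such mixing, is given next.
Kdm1a and Kdm1b: atgctttgacc
Hdac1 and Hdac2: ccagataatatgtctga
Rcor1 and Rcor2: ttactactcttggaagaa
Rcor1 and Rcor3: caagcctttagttttcatgggaa
Rcor2 and Rcor3: aaccagcctccaccac
The longest of these was the run of 23 bases between Rcor1 and Rcor3, and the run between Kdm1a and Kdm1b was 11 bases. Aligned end to end, the coding sequences were identical at 59.8% of bases for Kdm1a and Kdm1b, 75.9% for Hdac1 and Hdac2, and 66.8% to 71.6% for the Rcor pairs. Over the whole transcripts, no window of 75 bases of 1 member occurred in another member. For 3 of the genes, reads were not unique to the gene for another reason. Of the windows of 75 bases in the Hdac1 transcript, 52.5% also occur in pseudogene-like copies (Gm10093, Gm4864 and AC125456.1) that the table does not list. Kdm1b shares 8.77% of its windows with Dek, a neighbour transcribed from the opposite strand, and Rcor3 shares 16% with the antisense gene Gm26879. The values of these genes carry that uncertainty. For Kdm1a, Rcor1, Rcor2, Hdac2, Phf21a and Hmg20b no window was shared.

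The 6 libraries held 8940206 to 13798059 estimated counts, and WT replicate 1 was the smallest. Levels are given as counts per 1000000 after TMM normalization (CPM) for comparisons of 1 gene between mice, and as transcripts per 1000000 (TPM), which divide by transcript length, for comparisons between genes. Differences between WT and LSD1-mKO were tested by edgeR (quasi-likelihood F-test) over the 12828 genes that passed its expression filter, and adjusted p-values are Benjamini-Hochberg over all of these. All 9 genes passed the filter, Rcor2 only through its counts in LSD1-mKO. In this comparison 2 genes (0.0156% of those tested) had an adjusted p under 0.05, and 1 of them (0.0078% in the downward direction) was Kdm1a. Muscle fiber and slow fiber markers were abundant in every library, with sums of 55817 to 71411 CPM for Acta1, Ckm, Mb and Des and 22020 to 28254 CPM for Myh7, Tnnt1, Tnni1, Tnnc1 and Myl2. Markers of other cells were present too. The 6 fibroblast markers summed to 1329, 3437 and 4395 CPM in WT replicates 1 to 3 and to 2801, 1361 and 1488 CPM in LSD1-mKO replicates 1 to 3, and the 6 macrophage and leukocyte markers to 38.8, 135 and 119 CPM and to 91.8, 42.7 and 62.3 CPM. All 12 had a fitted level lower in LSD1-mKO, none with an adjusted p under 0.05 and Cd14 alone with an unadjusted p under 0.05 (edgeR). That count depended on WT replicate 1. Without it 6 of the 6 fibroblast and 4 of the 6 macrophage and leukocyte markers had an unadjusted p under 0.05, and 0 an adjusted p under 0.05 (edgeR). In that fit 14.4% of all genes tested had an unadjusted p under 0.05. So had 2 of 6 endothelial, 2 of 4 erythroid and 1 of 4 adipocyte markers, and none of the other marker lists. The sums were 472 to 689 CPM for endothelial, 521 to 633 CPM for mural, 199 to 524 CPM for erythroid, 68.2 to 90.4 CPM for Schwann cell, 37.1 to 55.8 CPM for adipocyte and 7.02 to 13.8 CPM for satellite cell markers, and for every marker list the range of WT overlapped that of LSD1-mKO.

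Kdm1a RNA fell to 42.6% of the WT level, and of the 9 genes it was the one called, with no overlap between the genotypes (LSD1-mKO lay wholly below WT for 6.1% of all genes tested). It measured 40.5, 38.2 and 33.6 CPM in the WT mice against 14.6, 16.6 and 16.6 CPM in the LSD1-mKO mice. The highest LSD1-mKO value was below the lowest WT value by more than the spread within either genotype, which was 37.4 ± 3.52 CPM in WT and 15.9 ± 1.18 CPM in LSD1-mKO (mean ± SD, n = 3). The log2 fold change was -1.23 with a 95% interval from -1.48 to -0.98 (adjusted p = 0.016, edgeR). The exact permutation test gave p = 0.1, the smallest that 3 mice against 3 can give. Leaving out any single mouse kept the log2 fold change between -1.30 and -1.17, but the adjusted p was above 0.05 in 4 of the 6 such fits, those without WT replicate 2 or without any 1 of the LSD1-mKO mice (0.111 to 0.209, edgeR). The remaining RNA in LSD1-mKO was 178 to 230 estimated counts per library, far above the limit of 3 counts taken as the floor. From which cells it came was not tested.

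Kdm1b (chr13:47043499-47085279, plus strand) showed no detectable change as its paralog fell. It measured 24.5, 29.1 and 26.7 CPM in WT and 24.2, 26.9 and 30.6 CPM in LSD1-mKO. The lowest and the highest of the 6 CPM values both belonged to LSD1-mKO mice, so that the WT range lay inside that of LSD1-mKO. In TPM it was the other way round, with 10 to 13.9 in WT and 10.6 to 13.6 in LSD1-mKO. The log2 fold change was 0.02 with a 95% interval from -0.25 to 0.29 (adjusted p = 0.978, edgeR), that is, a ratio of LSD1-mKO to WT between 0.843 and 1.22. A change larger than these bounds is outside the interval, and a smaller one is not excluded with 3 mice per genotype. The interval is not adjusted for the number of genes tested, so its bounds are not the limit of what could be called. Inpp5j, a gene with a log2 fold change of 0.79, was not called (adjusted p = 0.0756, edgeR). All 6 of its counts were fractional, and Dek, its neighbour on the opposite strand, had a log2 fold change of 0.02 (SE 0.08, adjusted p = 0.961, edgeR).

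**Figure D1:**
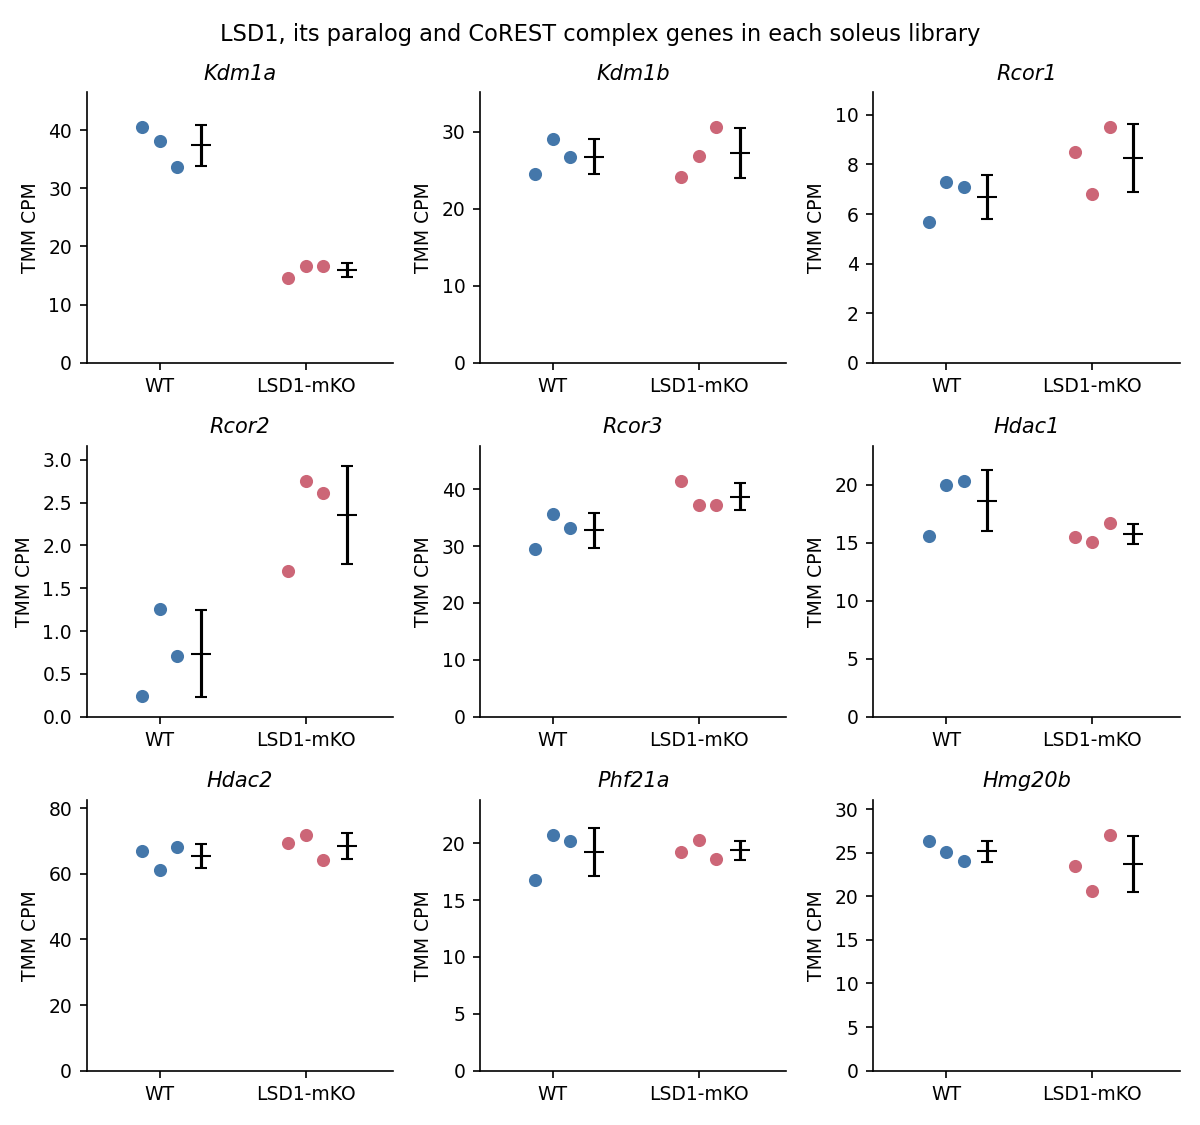
Normalized level (TMM CPM, linear axis from 0) of each of the 9 genes, with 1 point per mouse in WT (blue) and LSD1-mKO (red); the horizontal mark and bar beside the points are the mean ± SD of 3 mice. The genotypes are apart for Kdm1a (33.6 to 40.5 against 14.6 to 16.6), Rcor2 and Rcor3, and overlap for the other 6 genes.

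Because Kdm1a fell while Kdm1b did not, the balance of both demethylase transcripts shifted. Per transcript length, the ratio of Kdm1b to Kdm1a was 0.368, 0.463 and 0.482 in WT and 1.01, 0.98 and 1.12 in LSD1-mKO. Kdm1b thus went from 30.4% ± 3.04 of the summed TPM of both genes in WT to 50.9% ± 1.8 in LSD1-mKO (SD, n = 3), with no overlap between the genotypes (exact permutation test, 2-sided, p = 0.1). The sum itself was 39.4 ± 3.84 TPM in WT and 23.7 ± 2.31 TPM in LSD1-mKO, so the level of Kdm1b RNA did not make up for the fall of Kdm1a. These shares and sums contain Kdm1a, so they are not separate from its fall given above.

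The RCOR proteins are the scaffolds that join LSD1 to the deacetylases and to chromatin. All 3 Rcor genes had a fitted level higher in LSD1-mKO, as had 45.2% of all genes tested, none of them with an adjusted p under 0.05. The fitted difference was widest for Rcor2, the least abundant of them.

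Rcor2 (chr19:7267325-7275225, plus strand) was barely detected in WT muscle. It gave 2, 14 and 8 estimated counts in the WT libraries and 23, 38 and 28 in those of LSD1-mKO, which correspond to 0.241, 1.26 and 0.711 CPM and to 1.7, 2.75 and 2.61 CPM. The lowest LSD1-mKO value was above the highest WT value, which held for 6.63% of all genes tested. Counting error alone gives the WT replicate 1 value an exact Poisson 95% interval of 0.0292 to 0.871 CPM, and the intervals of the closest mice of the 2 genotypes, WT replicate 2 (0.689 to 2.11 CPM) and LSD1-mKO replicate 1 (1.08 to 2.55 CPM), overlap. Mean CPM in LSD1-mKO reached 319% of that in WT, and edgeR fitted a log2 fold change of 1.59 (95% interval 0.54 to 2.65) with an unadjusted p of 0.00821 and an adjusted p of 0.578. Unadjusted p-values under 0.05 in the upward direction were found for 3.52% of all genes tested. Without WT replicate 1, the mouse with 2 counts, the log2 fold change was 1.25, and without WT replicate 2 it was 2.20. The genotypes were thus apart in these mice, but the difference did not pass the correction for the number of genes tested. Its counts of 2 and 8 in WT replicates 1 and 3 were too low for the expression filter, which Rcor2 passed through the LSD1-mKO mice. Its separation and unadjusted p are therefore descriptions and no support for a difference.

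Rcor3 (chr1:192098546-192138062, minus strand) is the main scaffold transcript of the muscle and differed by far less. It measured 29.5, 35.7 and 33.1 CPM in WT and 41.4, 37.3 and 37.3 CPM in LSD1-mKO. In CPM the genotypes did not overlap, with a narrow gap between the highest WT and the lowest LSD1-mKO mouse. In TPM they overlapped, at 15.9 to 22.4 in WT and 21.7 to 23.9 in LSD1-mKO. The log2 fold change of 0.23 (95% interval 0.00 to 0.47) had an unadjusted p of 0.0485 and an adjusted p of 0.766 in edgeR. Without WT replicate 1 the log2 fold change was 0.17 and the unadjusted p from edgeR was 0.116. Over the 14 alternatives described below, the unadjusted p ran from 0.0268 (edgeR without WT replicate 2) to 0.159 (edgeR with the library size alone). With DESeq2 it was 0.0913. Gm10516, an antisense gene over Rcor3 exons, had a log2 fold change of 0.33 (SE 0.24, adjusted p = 0.819, edgeR), and its reads cannot be told apart from those of Rcor3 where they overlap if counting ignored the strand. Gm26879 is not listed in the table.

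Rcor1 (chr12:111039351-111115901, plus strand) is the founding member of the family. It measured 5.67, 7.29 and 7.11 CPM in WT and 8.51, 6.8 and 9.5 CPM in LSD1-mKO. LSD1-mKO replicate 2 lay inside the WT range. The log2 fold change was 0.29 (95% interval -0.13 to 0.72, adjusted p = 0.781, edgeR).

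Within the family, Rcor3 gave most of the transcripts in both genotypes. In summed TPM of the 3 genes its share was 85.9% ± 1.72 in WT and 81.6% ± 2.39 in LSD1-mKO, and that of Rcor1 was 11.6% in both. The share of Rcor2 was 0.963%, 4% and 2.46% in the WT mice and 4.63%, 8.12% and 7.44% in the LSD1-mKO mice. It was higher in all 3 LSD1-mKO mice, and the exact permutation test gave p = 0.1. The summed TPM of the 3 scaffolds was 18.1, 26.5 and 23.1 in WT and 28.5, 26.6 and 27.5 in LSD1-mKO, where the closest mice of the 2 genotypes nearly touched. Set against Kdm1a, there were 0.824 ± 0.14 scaffold transcripts per Kdm1a transcript in WT and 2.38 ± 0.278 in LSD1-mKO (SD, n = 3).

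**Figure D2:**
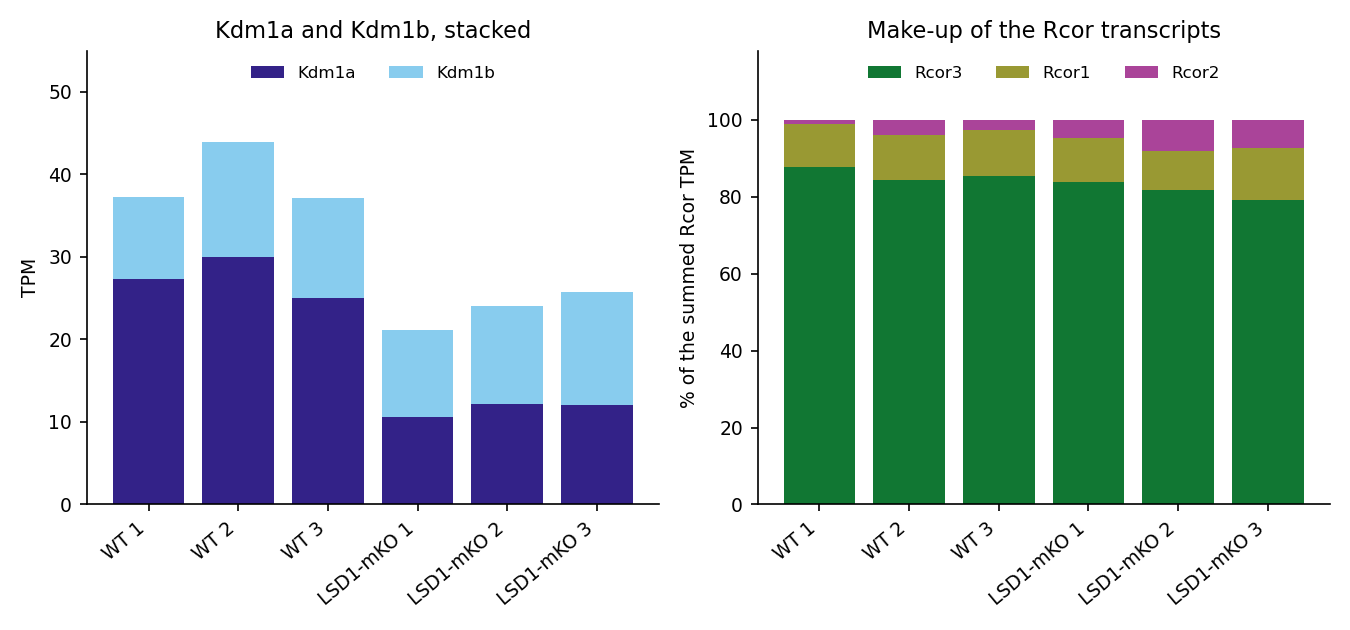
Left, TPM of Kdm1a and Kdm1b stacked for each mouse (linear axis from 0); right, share of each Rcor gene in their summed TPM, in percent, for each mouse. The Kdm1b part keeps its height while Kdm1a shrinks in the 3 LSD1-mKO mice, and the Rcor2 share is 0.963% to 4% in WT and 4.63% to 8.12% in LSD1-mKO.

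The start regions of Rcor2 and Rcor3 are shown because these were the partners with an unadjusted p under 0.05. Each stretch is the 250 bases before the RefSeq start in GRCm38.p6, read in the direction of the gene, with GC boxes (GGGCGG on either strand) in capitals. Rcor2 lies on the plus strand at chr19:7267144-7267393, and Rcor3 on the minus strand at chr1:192138041-192138290. In both, the first exon of the GENCODE gene begins inside the stretch.
Rcor2: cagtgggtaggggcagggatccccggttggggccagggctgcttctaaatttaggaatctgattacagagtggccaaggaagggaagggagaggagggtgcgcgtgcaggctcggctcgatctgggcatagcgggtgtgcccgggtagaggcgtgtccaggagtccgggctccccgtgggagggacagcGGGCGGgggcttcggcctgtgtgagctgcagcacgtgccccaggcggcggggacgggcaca
Rcor3: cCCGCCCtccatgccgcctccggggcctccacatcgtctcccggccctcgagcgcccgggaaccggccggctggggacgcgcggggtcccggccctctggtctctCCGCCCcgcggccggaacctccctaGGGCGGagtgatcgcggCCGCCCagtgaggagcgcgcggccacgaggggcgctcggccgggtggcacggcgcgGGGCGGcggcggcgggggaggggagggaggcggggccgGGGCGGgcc
The Rcor3 stretch has 6 GC boxes, 39 CpG dinucleotides and 82.8% G and C, and that of Rcor2 has 1 GC box, 17 CpG and 67.6% G and C. A GC box was found in 32.7% of the 32851 RefSeq start regions of this length. The Rcor2 stretch also holds 1 E-box (CANNTG, in 66.2% of all start regions) and 1 match to GGACAGC (5.28%), the right part of the REST site, which ends where the GC box begins. The left part of the REST site (TCAGCACC, 1.32% of start regions) was in neither stretch. These matches describe letters and say nothing about what binds there in muscle.

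HDAC1 and HDAC2 are the class I deacetylases that act beside LSD1 in CoREST and also sit in the NuRD and SIN3 complexes. Neither gene was called. Hdac1 (chr4:129516104-129542713, minus strand) measured 15.6, 20 and 20.3 CPM in WT and 15.5, 15.1 and 16.7 CPM in LSD1-mKO. WT replicate 1 was as low as the LSD1-mKO mice, and the other WT mice were above all of them. The log2 fold change was -0.24 (95% interval -0.54 to 0.05, adjusted p = 0.774, edgeR). Without WT replicate 1 it was -0.35 with an unadjusted p of 0.0113 and an adjusted p of 0.242 (edgeR). That fit leaves out the WT mouse that overlapped LSD1-mKO, and 14.4% of all genes tested in it had an unadjusted p under 0.05. Hdac2 (chr10:36974544-37001889, plus strand) was the more abundant of both in these counts. It measured 67, 61.1 and 68.1 CPM in WT and 69.4, 71.7 and 64.1 CPM in LSD1-mKO. The ranges overlapped, and the log2 fold change was 0.06 (95% interval -0.13 to 0.26, adjusted p = 0.906, edgeR). Per transcript length the ratio of Hdac1 to Hdac2 was 0.455 ± 0.0775 in WT and 0.37 ± 0.0406 in LSD1-mKO (SD, n = 3), and these overlapped (exact permutation test, p = 0.2). Both together amounted to 2.39 ± 0.351 transcripts per Kdm1a transcript in WT and 5.49 ± 0.476 in LSD1-mKO. With 52.5% of its windows shared with pseudogene-like copies, the level of Hdac1 against other genes is uncertain. How such reads were counted is not known.

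PHF21A, also called BHC80, and HMG20B, also called BRAF35, complete the complex. Phf21a (chr2:92093117-92364666, plus strand) measured 16.8, 20.7 and 20.2 CPM in WT and 19.2, 20.3 and 18.6 CPM in LSD1-mKO, with the LSD1-mKO values inside the WT range. Its log2 fold change was 0.01 (95% interval -0.25 to 0.27, adjusted p = 0.989, edgeR). Hmg20b (chr10:81346048-81350480, minus strand) measured 26.4, 25.1 and 24 CPM in WT and 23.5, 20.6 and 27 CPM in LSD1-mKO, where 1 LSD1-mKO mouse was the highest and another the lowest of all 6. Its log2 fold change was -0.09 (95% interval -0.36 to 0.18, adjusted p = 0.903, edgeR).

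**Figure D3:**
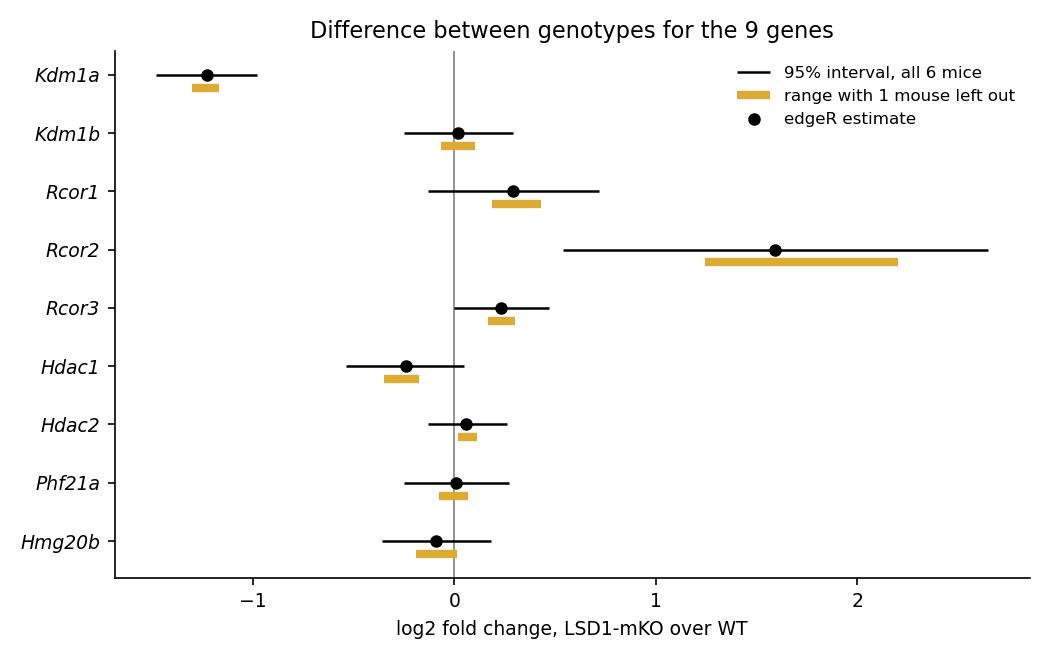
Log2 fold change of each gene, LSD1-mKO over WT: black point, edgeR estimate; black line, 95% interval from all 6 mice; yellow bar, range of the estimate with 1 mouse left out in turn. Kdm1a lies at -1.23, Rcor2 at 1.59 with the widest interval, and the intervals of Kdm1b, Rcor1, Hdac1, Hdac2, Phf21a and Hmg20b include 0.

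Over the 8 partners, 0 were called at an adjusted p under 0.05 by edgeR, and 0 by DESeq2 or limma voom. At an unadjusted p under 0.05 there were 2, Rcor2 and Rcor3, where the share over all genes tested was 6.4%. Rcor2 entered the test only through its LSD1-mKO counts. The fitted level was higher in LSD1-mKO for 6 and lower for 2, with a median log2 fold change of 0.04 against -0.02 over all 12828 genes. In CPM the genotypes did not overlap for 2 of the 8, and they did not for 12.7% of all genes tested. In TPM they overlapped for Rcor3. WT replicate 1 had the smallest library and the lowest fibroblast and macrophage marker sums of the WT mice. It gave the lowest WT value for Kdm1b, Rcor1, Rcor2, Rcor3, Hdac1 and Phf21a. The share of all genes tested with their lowest WT value in that mouse was not counted, so this is no result about the partners. The part of those markers in the values was not tested. Without WT replicate 1, the log2 fold change was -0.03 for Kdm1b, 0.20 for Rcor1 and 1.25 for Rcor2. It was 0.17 for Rcor3, -0.35 for Hdac1 and -0.07 for Phf21a. These genes had their lowest WT value in the mouse left out, so a shift downward was fixed by that choice. For the partners not chosen in this way it was 0.085 for Hdac2 and -0.053 for Hmg20b. Set against Kdm1a in TPM, each of the 8 partners gave a higher ratio in LSD1-mKO without overlap, with means that were higher by a factor from 1.97 for Hdac1 to 7.3 for Rcor2. The same ratio was higher without overlap for 92.4% of all other genes tested, so this count restates the fall of Kdm1a and is no result about the partners. Of the 17 ratios, shares and sums compared by the exact permutation test (2-sided), 12 contain Kdm1a, and their separation is not independent of its own. Among the 5 without Kdm1a, the genotypes were apart for 3, the shares of Rcor2 and Rcor3 and the sum of the 3 Rcor genes (exact p = 0.1 each, 0.113 after adjustment over the 17). These 3 are not separate from each other, as both shares are parts of that sum and Rcor3 makes up most of it. They restate the levels of Rcor2 and Rcor3 given above.

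Placed in order of TPM, Hdac2 was the most abundant of the 9 genes in both genotypes, followed by Hmg20b. In WT the means were 44.7 TPM for Hdac2, 34.5 for Hmg20b, 27.4 for Kdm1a, 20.4 for Hdac1, 19.4 for Rcor3, 12 for Kdm1b, 6.79 for Phf21a, 2.64 for Rcor1 and 0.601 for Rcor2. The ranges of neighbours in this order overlapped for Hdac1 and Rcor3 and were apart for the others. In LSD1-mKO, Kdm1a went from the third to the sixth place, with 11.6 ± 0.916 TPM against 12.1 ± 1.5 TPM for Kdm1b (SD, n = 3), and the ranges of both overlapped. Rcor3, at 22.5 ± 1.25 TPM, then took the third place, ahead of Hdac1 at 17.1 ± 0.909 TPM. The place of Hdac1 is uncertain, because how reads shared with its pseudogene-like copies were counted is not known. The order also depends on the transcript length used. With the mean length of a gene's coding transcripts in place of the longest, Hdac1 took rank 6 in both genotypes, while in LSD1-mKO Rcor3 took rank 2, Hmg20b rank 3, Kdm1b rank 4 and Kdm1a rank 5.

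**Figure D4:**
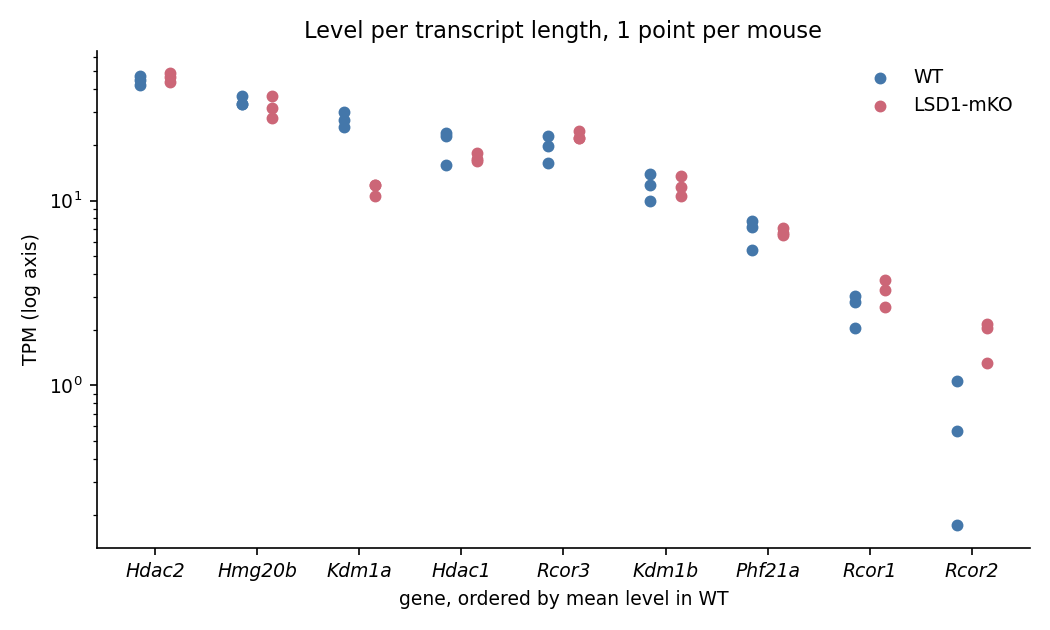
Level per transcript length (TPM, log axis) of the 9 genes in the order of their WT means, with 1 point per mouse in WT (blue) and LSD1-mKO (red). Kdm1a drops from 25 to 30 TPM in WT to 10.6 to 12.2 TPM in LSD1-mKO, where it meets Kdm1b, and Rcor2 is the lowest gene in both genotypes.

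Genes around the complex were counted from lists of known partners and targets. Of 90 genes listed, 71 passed the expression filter, 28 with a fitted level higher in LSD1-mKO and 43 lower. By edgeR 0 of the 71 had an adjusted p under 0.05, and 2 had an unadjusted p under 0.05, again to be read against 6.4% of all genes. Without WT replicate 1 the latter count was 6, of which 2 were NuRD subunits, against 14.4% of all genes tested in that fit, and the former was 0. The median log2 fold change was -0.03. In CPM the genotypes did not overlap for 7 of the 71, against 12.7% of all genes tested.

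Among 9 other proteins that associate with CoREST, 3 were fitted higher and 6 lower. The corepressor Ctbp2 had a log2 fold change of 0.21 (SE 0.11) with LSD1-mKO mice above WT mice, Zfp217 of -0.36 (SE 0.27) and Zmym2, a zinc finger subunit, of 0.09 (SE 0.08). Of the 14 DNA-binding factors that bring LSD1 to its sites, 11 were tested, with 2 fitted higher and 9 lower. Rest itself was low, at 5.34 ± 1.05 CPM in WT and 4.06 ± 1.49 CPM in LSD1-mKO (SD, n = 3), with a log2 fold change of -0.40 (SE 0.29). Foxk1, a forkhead factor, measured 40.8 ± 2.27 CPM and 38.9 ± 1.69 CPM, and Tal1, a factor of blood and endothelial cells, had a log2 fold change of -0.24 (SE 0.25). No gene in these lists had an unadjusted p under 0.05 in edgeR.

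The other complexes that use HDAC1 and HDAC2 were counted in the same way. Of 12 NuRD subunits tested, 3 were fitted higher and 9 lower, from Cdk2ap1 at 0.16 (SE 0.09) to a lowest log2 fold change of -0.27, with Gatad2a at -0.13 (SE 0.09) and Mta3 at -0.16 (SE 0.14). Of 13 SIN3 subunits, 5 were fitted higher and 8 lower, with Ing1 at -0.18 (SE 0.10), Ing2 at 0.33 (SE 0.19) and Brms1l at 0.19 (SE 0.11). None of these 25 genes had an unadjusted p under 0.05 in edgeR. Of the 9 other zinc-dependent deacetylases, 2 were fitted higher and 7 lower. Hdac4, a class IIa enzyme that responds to nerve activity in muscle, measured 28, 25.4 and 27.6 CPM in WT and 17.2, 24.5 and 20.6 CPM in LSD1-mKO. All 3 LSD1-mKO values were below WT, with a log2 fold change of -0.38 (SE 0.13), an unadjusted p of 0.0222 and an adjusted p of 0.701 in edgeR. Hdac7 was at -0.12 (SE 0.11) and Hdac8 at -0.18.

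LSD1 needs the cofactor FAD, which is made from riboflavin, and its protein is kept in check by ubiquitin enzymes. The list of these genes with Glyr1, the partner of KDM1B, held 9 genes, 5 fitted higher and 4 lower. Slc52a3, a riboflavin transporter, was low at 2.55 ± 0.616 CPM in WT and 1.56 ± 0.248 CPM in LSD1-mKO (SD, n = 3). The genotypes did not overlap but nearly touched, at 1.89 CPM in WT replicate 2 and 1.85 CPM in LSD1-mKO replicate 1. Its log2 fold change was -0.69 (SE 0.29), with an unadjusted p of 0.043 and an adjusted p of 0.766 in edgeR. Rfk, the riboflavin kinase, had a log2 fold change of 0.25 (SE 0.11) and an unadjusted p of 0.0525 in edgeR. Flad1, the FAD synthase, was at 0.14 (SE 0.11).

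Of 19 neuronal genes that REST and CoREST hold silent outside the nervous system, 18 were in the table and 4 passed the expression filter, while 6 had at most 3 counts in every library. The 4 tested genes were all fitted higher in LSD1-mKO, none with an unadjusted p under 0.05 in edgeR. Of all genes tested, 45.2% were fitted higher. Stmn2, a tubulin-binding protein of neurons, measured 4.34, 6.93 and 5.6 CPM in WT and 13, 7.17 and 5.96 CPM in LSD1-mKO, so that its log2 fold change of 0.63 (SE 0.31) rested mainly on LSD1-mKO replicate 1. L1cam was at 0.38 (SE 0.25) and Syp at 0.21. The 4 genes of energy expenditure that LSD1 represses in fat cells were fitted higher, against the same 45.2%, without an unadjusted p under 0.05 in edgeR. Ppargc1a, the coactivator of mitochondrial genes, measured 79.7, 48.2 and 59 CPM in WT and 143, 58.3 and 75.5 CPM in LSD1-mKO, with a log2 fold change of 0.57 (SE 0.32), and again LSD1-mKO replicate 1 stood above the rest. Pdk4 was at 0.39 (SE 0.34) and Pnpla2, the first lipase of fat breakdown, at 0.14 (SE 0.17), and both overlapped between the genotypes.

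**Figure D5:**
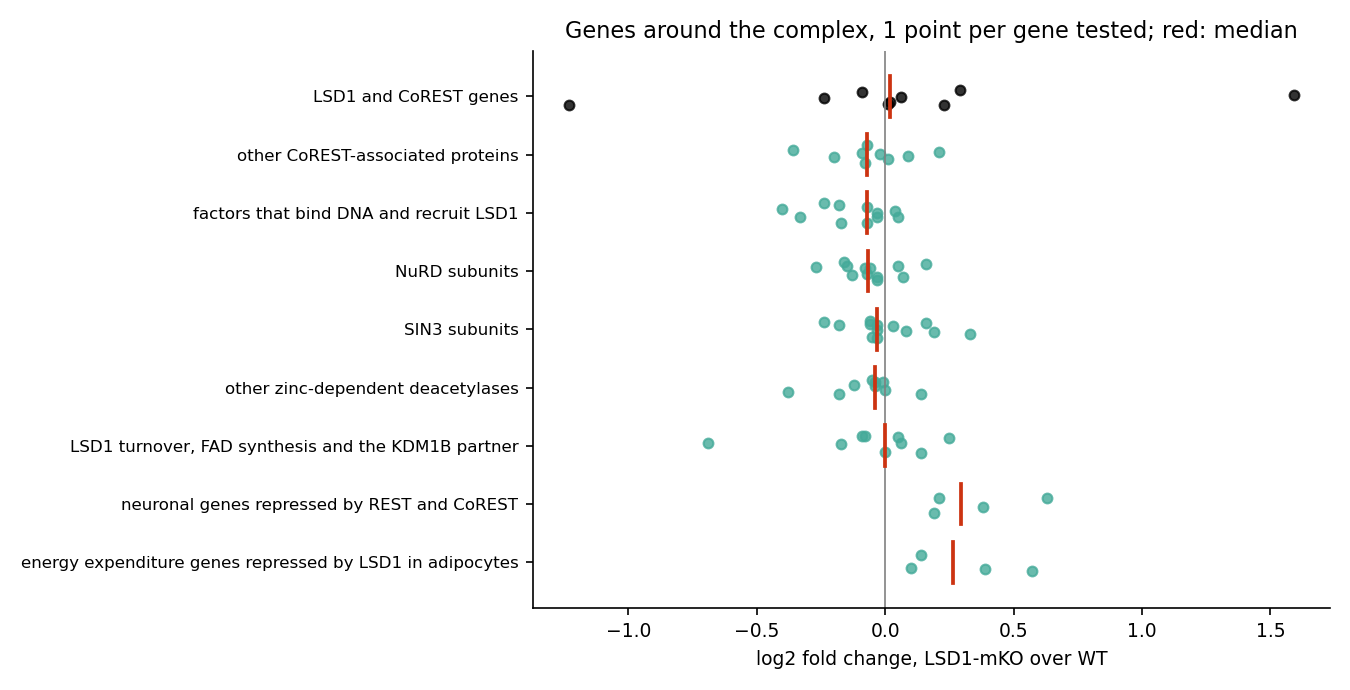
Log2 fold change, LSD1-mKO over WT, of the 9 genes (black) and of the tested genes of each list (green), 1 point per gene with vertical scatter for visibility only; the red line is the median. Apart from Kdm1a at -1.23 and Rcor2 at 1.59, the points lie between -0.69 and 0.63.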

How the data were processed

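Per the labels and the methods of the study, single-end reads of 75 bases from poly(A) RNA were aligned to mm10 with STAR, and the authors deposited estimated counts per gene, not normalized. The counting tool and annotation are not given in the sources used here. A deposited DESeq2 table of the authors' own comparison (log2 fold change, p-value) was not used. The members and gene lists were chosen with earlier results of these data known.

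Estimated counts were rounded and tested with edgeR 4.0.16 in R 4.3.3 (TMM, filterByExpr by genotype, glmQLFit, Benjamini-Hochberg over 12828 genes, threshold 0.05). Ratios and single values were compared with an exact permutation test over the 10 splits of 6 mice, which cannot give p under 0.1. TPM used the longest coding transcript in GENCODE vM21 (GRCm38), found for 23350 symbols directly and 677 through older ones; these hold 99.7% of counts. Counts of PCR reads are not independent molecules, so counting intervals cover counting error only. Named genes were the 9 members, up to 3 per list with the lowest unadjusted p, and the 5 genes at each end of the correlation with Kdm1a. DESeq2 1.42.0, limma 3.58.1 (voom), other normalizations and filters, the replicate block, and each mouse left out were alternatives. On simulated data of 12709 genes, edgeR called 70 of 100 genes changed 2-fold, 92 of 96 changed 4-fold, and 5 unchanged genes. The simulation held many more changed genes than the 2 called in the real comparison, which makes an adjusted p under 0.05 easier to reach. Its shares therefore do not measure the power of the real comparison.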

Additional observations from a re-analysis of the deposited data

How the results depend on the processing

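Of 125 comparisons of the 9 genes under 14 alternatives, 113 had the same direction and stayed on the same side of the threshold, 5 kept the direction but lost the call (all Kdm1a) and 7 changed sign, all in genes whose main log2 fold change was within 0.1 of 0. With the replicate number as a block, the log2 fold change of Kdm1a was -1.23 with an adjusted p of 0.299 (edgeR), and 1 gene was called higher and 0 lower. The labels do not say whether the numbers pair the mice. The deviations of same-numbered mice correlated at -0.346, -0.115 and -0.155, which cannot settle it with 3 mice per genotype. With the library size alone the log2 fold change was -0.007 for Kdm1b and -0.02 for Phf21a. With 1 mouse left out it ranged from -1.303 to -1.168 for Kdm1a, from -0.067 to 0.102 for Kdm1b, from -0.074 to 0.068 for Phf21a and from -0.189 to 0.011 for Hmg20b. The sign changed for Kdm1b without WT replicate 1 (-0.034) or LSD1-mKO replicate 3 (-0.067), for Phf21a without WT replicate 1 (-0.074) or LSD1-mKO replicate 2 (-0.019), and for Hmg20b without LSD1-mKO replicate 2 (0.011). The number of genes called was 8 higher and 3 lower without a filter on low counts, 33 and 9 with DESeq2, 2 and 1 with limma voom, and from 1 to 2 higher and from 0 to 1 lower with 1 mouse left out. None of the 8 partners was called under any alternative. Rcor2 was not tested when at least 10 counts were asked of every library. With the mean transcript length, the WT mean was 0.484 for Hdac1 to Kdm1a, 0.368 for Hdac1 to Hdac2 and 89.3% for the Rcor3 share. Except where the alternative itself has fewer mice or another set of genes, the cause was not tested. The depth of 8940206 to 13798059 counts limits Rcor2 most.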

Other observations

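The genes whose pattern over the 6 mice was most like that of Kdm1a were ranked by Pearson's r of log2 CPM among 10210 tested genes with a mean of at least 5 CPM, as a description. Most of such a correlation is the step between the genotypes, since Kdm1a splits the mice into separate groups. The highest were Itpr2 (0.99), an inositol trisphosphate receptor that releases calcium, Unk (0.988), Stk16 (0.984), Nacc1 (0.982) and Slc1a5 (0.98), a glutamine transporter. All of these were below WT in every LSD1-mKO mouse, with log2 fold changes from -0.41 (Itpr2) to -0.15 (Nacc1), smaller than that of Kdm1a. The lowest were Taf9b (-0.99), Inpp5j (-0.987), Lingo3 (-0.982), Ccbl2 (-0.981) and 2210013O21Rik (-0.977), which were above WT in every LSD1-mKO mouse. Inpp5j, an inositol phosphatase, measured 16 ± 0.368 CPM in WT and 27.8 ± 1.14 CPM in LSD1-mKO (SD, n = 3), with a log2 fold change of 0.79 and an adjusted p of 0.0756 in edgeR. Taf9b, a subunit related to the general factor TAF9, measured 9.33 ± 0.568 CPM and 14.7 ± 0.626 CPM, with a log2 fold change of 0.66 (adjusted p = 0.28, edgeR). None of the 10 had an adjusted p under 0.05. Of the partners with this mean level, Rcor3 was at -0.835, Rcor1 at -0.683, Hdac2 at -0.461 and Phf21a at -0.155. Kdm1b was at -0.05, Hmg20b at 0.403 and Hdac1 at 0.583. Counted from the highest r among the 10210 genes, Rcor3 ranked 9925, Rcor1 9394 and Hdac1 1332. Many other genes thus had more extreme values.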
